A study of Homo sapiens with 8 samples.

Results

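The data describe 57 human genes whose products copy DNA or make the deoxynucleotides it is copied from. They were measured in breast cancer cells with and without knockdown of the transcription factor FOXA1. The genes were taken by symbol from the deposited count table, which lists 30434 genes, of which 16430 had enough counts to be tested. Each of the 57 symbols was found and each passed that filter, with mean counts over the 8 libraries between 244 and 10368. POLA2 has another identifier, ENSG00000285816.1, for a read-through transcript that shares 2012 exon bases with POLA2, and this entry was not counted among the 57.

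RNA was sequenced from SKBR3, an established human breast cancer cell line with amplified ERBB2 (HER2), in 4 control and 4 FOXA1 knockdown libraries. The controls carry the genotype label WT. The knockdown is a stable line made with lentiviruses carrying 3 individual short hairpin RNAs against FOXA1, and the labels do not say whether the controls received a control vector, or how the replicates of a group were made. The p-values therefore measure only the spread between these libraries, which may be technical. The question asked here is how transcripts for DNA replication and nucleotide synthesis differ between these lines.

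Replication begins when the origin recognition complex, CDC6 and CDT1 load the ring-shaped MCM helicase onto DNA, a step called licensing that geminin blocks outside its proper window. At the start of S phase, kinases and the GINS and CDC45 proteins turn the loaded ring into an active helicase, and primase, polymerases, the PCNA clamp and its loader follow. Ribonucleotide reductase, thymidylate synthase and thymidine kinase supply the deoxynucleotides. Many of these genes are transcribed in a cell cycle-dependent way under E2F factors, and tumour cell lines that divide quickly express them at high levels.

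Because the genes are often described as E2F targets, their promoters were searched for short E2F-type sequences, and 4 examples are printed here to show genes with and without them. RefSeq gives promoter windows on GRCh38.p14, 250 bases before to 50 bases after the transcript start, for 49 of the 57 genes. No window was used for MCM4, MCM5, GINS4, POLD3, RPA2, RPA3, DNA2 and RRM2B. The letters searched on both strands were TTTCCCGC, TTTCGCGC, TTTGCCGC and TTTGGCGC for E2F, TTTGAA for the cell cycle homology region, CCAAT for the CCAAT box, and TGTTTAC and TATTTAC for forkhead factors such as FOXA1. E2F letters can overlap one another on opposite strands. The sequences are the 250 bases before the start, 5′ to 3′ along the gene, with E2F, cell cycle homology region and CCAAT letters in capitals. The window of MCM6, on the minus strand at chr2:135876444-135876693, holds 4 E2F matches, as 2 pairs that overlap on opposite strands, and 2 CCAAT matches. The window of POLA1, on the plus strand at chrX:24693668-24693917, holds 1 E2F and 1 CCAAT match. Those of RRM1, on the plus strand at chr11:4094435-4094684, and CHAF1A, on the plus strand at chr19:4402390-4402639, hold no E2F match. RRM1 has 1 match to the cell cycle homology region and 1 CCAAT match, and CHAF1A has 4 CCAAT matches, of which 2 overlap. A match may also lie in the 50 bases after a start, which are not printed.
MCM6: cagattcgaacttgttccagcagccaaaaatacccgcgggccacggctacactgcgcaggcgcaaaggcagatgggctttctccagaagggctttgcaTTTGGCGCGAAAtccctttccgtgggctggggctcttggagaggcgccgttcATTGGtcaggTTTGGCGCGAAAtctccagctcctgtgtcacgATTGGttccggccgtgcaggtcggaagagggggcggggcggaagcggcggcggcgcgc
POLA1: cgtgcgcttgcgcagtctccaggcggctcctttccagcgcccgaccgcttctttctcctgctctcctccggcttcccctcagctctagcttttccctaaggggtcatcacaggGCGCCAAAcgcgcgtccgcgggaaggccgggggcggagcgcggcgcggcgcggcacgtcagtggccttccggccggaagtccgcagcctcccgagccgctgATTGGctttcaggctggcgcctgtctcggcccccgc
RRM1: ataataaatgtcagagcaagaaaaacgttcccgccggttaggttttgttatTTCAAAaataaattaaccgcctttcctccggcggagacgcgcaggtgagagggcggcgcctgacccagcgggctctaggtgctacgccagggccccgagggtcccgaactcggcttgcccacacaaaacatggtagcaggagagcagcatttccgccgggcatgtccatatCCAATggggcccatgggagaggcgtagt
CHAF1A: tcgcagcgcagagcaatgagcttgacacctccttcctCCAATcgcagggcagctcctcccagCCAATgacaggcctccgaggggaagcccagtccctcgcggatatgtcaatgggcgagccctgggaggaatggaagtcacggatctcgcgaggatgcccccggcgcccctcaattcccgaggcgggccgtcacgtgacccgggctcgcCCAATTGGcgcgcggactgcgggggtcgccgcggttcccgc

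MCM6 and POLA1 rose in the knockdown, while RRM1 and CHAF1A fell, by edgeR's quasi-likelihood test over all genes at an adjusted p under 0.05. These 4 examples do not stand for the 49 genes. Across the 49 genes with a window, 23 (46.9%) held E2F letters, against 3.99% of all 27305 genes in the promoter table. Among 9165 other protein-coding genes whose mean reached 50 counts, the share was 6.6%. The median log2 fold change was 0.53 over the 23 genes with E2F letters and 0.14 over the other 26. Among the other coding genes the medians were close to 0, at 0.037 with and 0.00017 without these letters. Of the 23, 18 rose and 3 fell, the last being CDC6, POLA2 and RFC3, and of the 26, 15 rose and 6 fell. Among the largest rises, MCM10, PRIM1, RFC1 and POLD1 (1.23, 1.14, 1.12 and 1.03) held no E2F letters and CDC7 (1.07) held them. Whether fold changes differ with E2F letters was not tested. Of all genes tested, 39.4% rose and 37.7% fell. MCM2, MCM3, MCM6 and MCM7 held E2F letters, as did ORC3, CDC6, CDT1 and GMNN among licensing genes and CDC7, GINS1, GINS2 and GINS3 among helicase activators. CCAAT letters stood in 29 of the 49 (59.2%, against 39.7% of all genes), including TK1 and RRM2, whose windows held no E2F letters. Forkhead letters stood in 2, MCM7 and PRIM2 (4.08%, against 7.25%), and TTTGAA in 3, DBF4, DUT and RRM1 (6.12%, against 18.2%). Among the 9165 other coding genes, the shares were 43.3% for CCAAT, 5.36% for forkhead and 13.6% for TTTGAA. Counted by window, forkhead letters stood in 4.62% of the windows of the 49 genes and 4.01% of those of the other coding genes. The side of the forkhead comparison thus depends on the background and the unit counted. A match describes letters in these windows, not a bound site, and the absence of a match says only that these letters were not there.

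FOXA1 itself, the gene targeted by the hairpins, averaged 191.7 ± 1.65 CPM (counts scaled to a common library size, adjusted by the trimmed-mean factor) in the controls and 3.96 ± 0.340 CPM in the knockdown (SD, n = 4), which left 2.06%. Library totals ran from 21838121 to 23786684 counts in the controls and from 19087878 to 23503753 in the knockdown. Control replicate 3 stood apart. Pairs with it differed by 4.92 to 6.30 times the counting noise (chi-square per degree of freedom over genes), against 2.2 to 2.4 for the other control pairs, and it was the lowest control for 22 of the 57 genes and the highest for 25. Without it, 40 of the 57 genes rose and 10 fell, and their median log2 fold change was 0.39. Each of 7 genes chosen to mark a luminal epithelial cell line was expressed, a list that includes the amplified ERBB2. EPCAM, KRT8 and KRT18 were higher in the knockdown and KRT19, KRT7, ERBB2 and GRB7 lower. The summed level of the 7 was 18617 to 20729 CPM in the controls and 11593 to 12491 CPM in the knockdown. ERBB2 alone went from 7308 to 1340 CPM, while KRT8 went from 4519 to 5619 CPM, so the sum does not describe the epithelial markers as a set. Of the fibroblast and leukocyte markers, COL1A2, DCN and PTPRC had 3 or fewer counts in every library, while others were detected. Summed fibroblast markers were at 5.26 to 6.97 CPM in the controls and 10.8 to 11.9 CPM in the knockdown. The fibroblast genes COL3A1 and PDGFRB were called higher and COL1A1 lower (5.38 to 4.33 CPM). The leukocyte gene CD14 was called higher and CD68 lower (4.94 to 0.589 CPM). Among endothelial genes, CDH5 was called higher (16.1 to 20.1 CPM) and VWF lower (5.22 to 0.845 CPM). PECAM1 and KDR had too few counts to be tested. The part of these genes in the results was not tested. In bulk RNA, a change in the share of cells in S phase and a change in RNA per cell, up or down, cannot be told apart.

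Most replication genes were modestly higher in the FOXA1 knockdown, while the nucleotide salvage enzyme TK1 and the ribonucleotide reductase subunit RRM2 were clearly lower. Of the 57, 40 rose and 9 fell, against a background of 39.4% and 37.7% of all genes tested, or 77.1% in either direction. The median log2 fold change was 0.39 over the 57 genes and 0.02 over all genes tested. By at least 1.5-fold, 19 rose and 2 fell, against 22.6% and 21.6% of all genes tested, or 44.3% in either direction. CPM did not overlap between the groups for 50 of the 57, against 72% of all genes tested. The share of all counts that fell on the 57 genes was 0.476% to 0.481% in the control libraries and 0.575% to 0.578% in the knockdown libraries, so the groups did not overlap. Each knockdown library gave a positive median shift, from 0.38 to 0.41 on the log2 scale relative to the control mean.

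**Figure D1:**
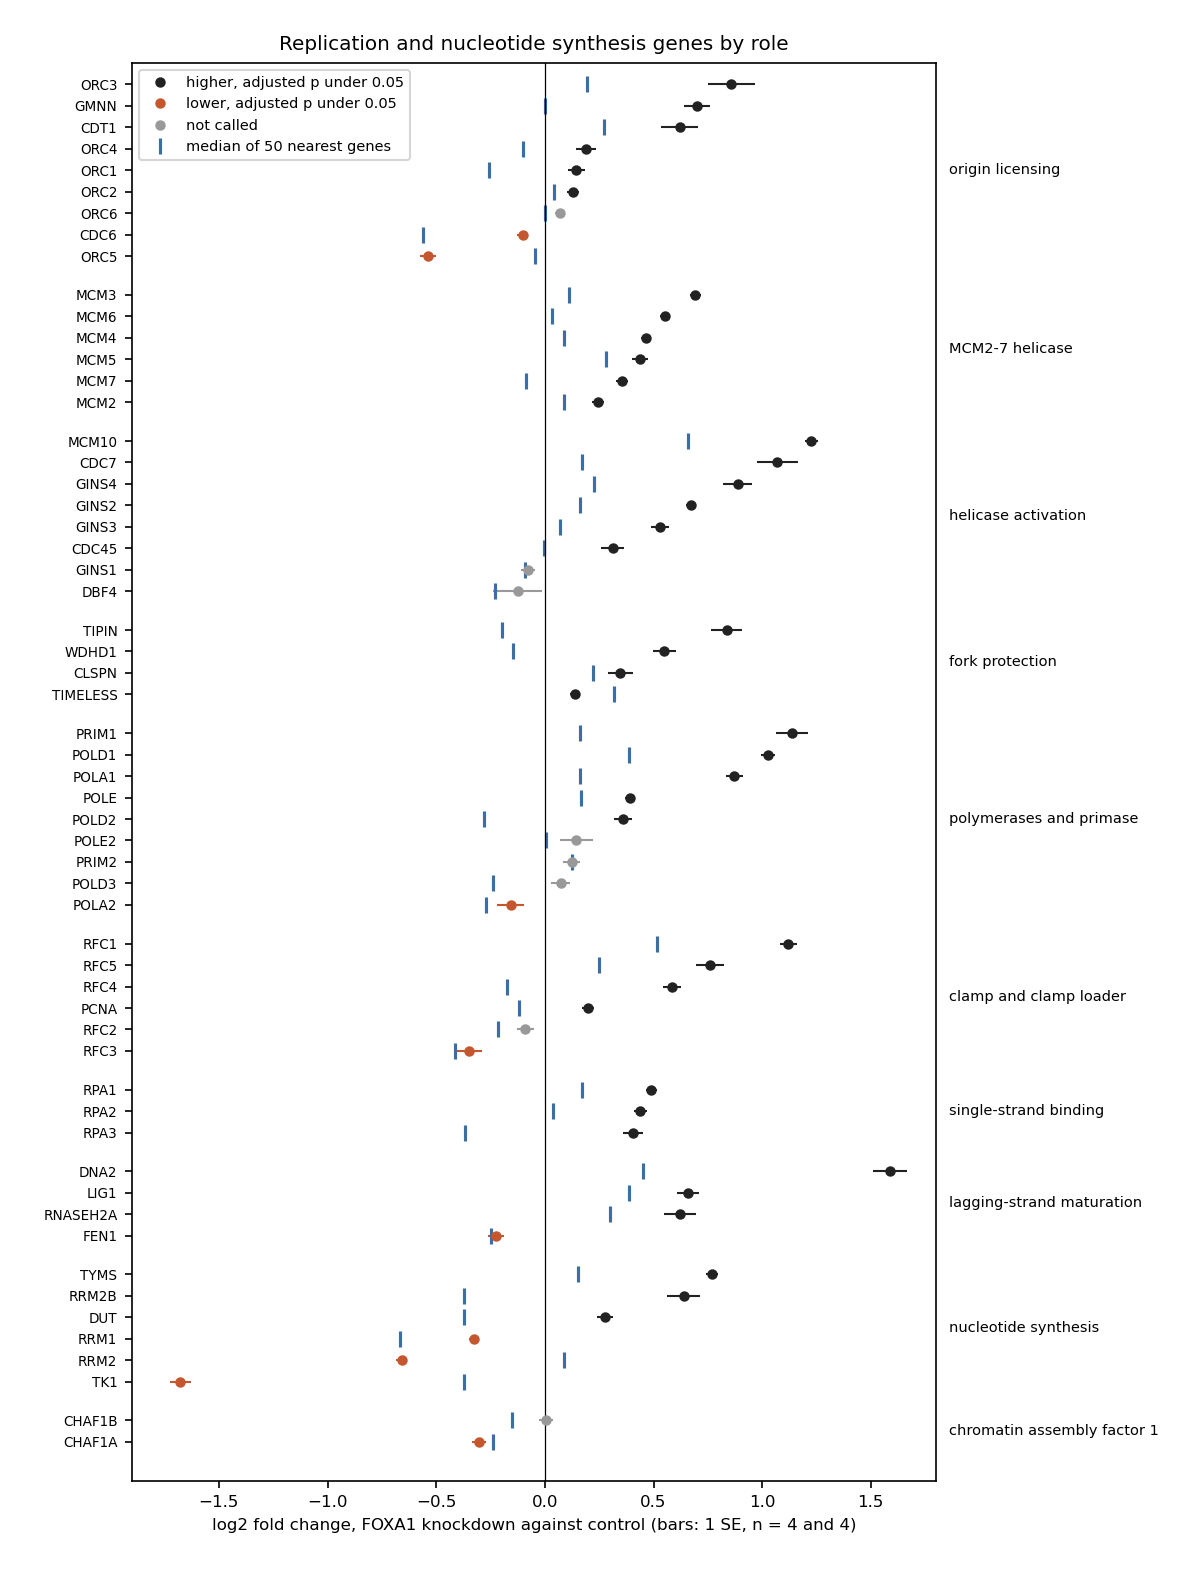
Log2 fold change of each of the 57 genes (x axis, knockdown against control, bars 1 SE, n = 4 and 4), grouped by role on the y axis; black points rose, orange points fell, grey points did not pass the test, and blue ticks are the median of each gene's 50 nearest genes. The MCM helicase, fork protection and single-strand binding genes are all black, and TK1 lies farthest to the left at -1.68.

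Positions of genes are those of GENCODE 29 on GRCh38. Among the 9 licensing genes, 6 rose, ORC5 and CDC6 fell and ORC6 did not pass the test. ORC3 (ENSG00000135336.15, chr6:87590067-87667453), a subunit of the origin recognition complex, was at 20.2, 20.1, 15.1 and 19.6 CPM in control replicates 1 to 4 and at 35.9, 34.4, 34.6 and 31.2 CPM in knockdown replicates 1 to 4. Its groups did not overlap, and it rose 1.81-fold (log2 fold change 0.86 ± 0.11 SE, edgeR adjusted p = 9.15e-09). ORC5 (ENSG00000164815.11, chr7:104126341-104208047), another subunit of the same complex, was at 58.1, 58.7, 58.1 and 62.4 CPM in the controls and at 43.0, 40.4, 39.8 and 40.3 CPM in the knockdown. Every knockdown library lay below every control, a fall of 1.45-fold (log2 fold change -0.54 ± 0.035 SE, edgeR adjusted p = 6.33e-11). ORC1, the largest subunit, ORC2 and ORC4 rose by 0.14, 0.13 and 0.19 on the log2 scale. ORC2 lost its call without control replicate 1 (log2 fold change 0.11, edgeR adjusted p = 0.0579). ORC4 shares 430 exon bases with ACVR2A on the opposite strand. ORC6 did not pass the test although its groups did not overlap (log2 fold change 0.068 ± 0.021 SE, edgeR adjusted p = 0.131).

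CDC6, the loading factor that joins the origin recognition complex, had the highest counts of the 57 genes. It was at 477, 501, 483 and 479 CPM in the controls and at 441, 445, 451 and 469 CPM in the knockdown. The groups did not overlap, but the fall was only 1.07-fold (log2 fold change -0.10 ± 0.025 SE, edgeR adjusted p = 0.00584). It did not pass with scaling by library size only (adjusted p = 0.578) or by upper quartile (adjusted p = 0.237), so the call rests on the scaling. CDT1, the partner of CDC6 in helicase loading, was at 24.0, 22.7, 29.1 and 23.4 CPM in the controls and at 36.6, 37.5, 38.5 and 39.8 CPM in the knockdown. Control replicate 3 was the highest control, yet below every knockdown library, and CDT1 rose 1.54-fold (log2 fold change 0.62 ± 0.085 SE, edgeR adjusted p = 8.27e-09). GMNN, which encodes the CDT1 inhibitor geminin, was at 39.5, 39.6, 36.7 and 41.4 CPM in the controls and at 68.4, 60.3, 66.7 and 60.2 CPM in the knockdown. It rose 1.63-fold without overlap (log2 fold change 0.70 ± 0.060 SE, edgeR adjusted p = 4.53e-12).

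The licensing factor CDT1 and its inhibitor geminin thus both rose, and their ratio did not pass a test. The ratio of CDT1 to GMNN, in counts per kb of exon, was 0.452, 0.425, 0.589 and 0.420 in the control libraries and 0.397, 0.462, 0.428 and 0.491 in the knockdown libraries. These values overlap, with a log2 difference -0.076 ± 0.13 SE and an exact two-sided permutation p of 0.714 over 70 divisions of the libraries. Control replicate 3 alone was high, and without it the log2 difference was 0.036.

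All 6 genes of the MCM helicase ring rose, with log2 fold changes from 0.25 to 0.69 and a median of 0.45. MCM3 (ENSG00000112118.20, chr6:52264009-52284881) was at 112, 109, 115 and 112 CPM in the controls and at 188, 181, 179 and 177 CPM in the knockdown. MCM6 (ENSG00000076003.5, chr2:135839626-135876426), with the 4 E2F matches shown above, was at 90.0, 88.0, 86.5 and 87.9 CPM in the controls and at 132, 129.5, 125 and 130.3 CPM in the knockdown. In both genes the groups were far apart and the spread within each was small. MCM3 rose 1.62-fold (log2 fold change 0.69 ± 0.025 SE, edgeR adjusted p = 2.42e-15) and MCM6 1.47-fold (log2 fold change 0.55 ± 0.021 SE, edgeR adjusted p = 4.36e-13). MCM2, MCM4, MCM5 and MCM7 rose by 0.25, 0.47, 0.44 and 0.35 on the log2 scale, also without overlap. MCM7 shares 392 exon bases with AP4M1 on the opposite strand, and AP4M1 had a log2 fold change of -0.48. Although the subunits form a ring with 1 copy of each, their transcript levels differed. In CPM per kb of exon, MCM7 was highest (82.5 in the controls, 106 in the knockdown) and MCM5 lowest (10.6 and 14.4). Per kb of coding sequence MCM7 was again highest, but MCM2 was lowest. The span from lowest to highest per kb of exon was 7.77-fold in the controls and 7.34-fold in the knockdown. Per kb of coding sequence it was 5.95-fold and 6.42-fold, so the direction of this small change depends on the length used.

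Of the 8 genes that turn the loaded ring into a working helicase, 6 rose and none fell. MCM10, which binds the helicase as it starts to unwind DNA, was at 31.5, 30.5, 30.2 and 31.3 CPM in the controls and at 71.4, 75.0, 68.8 and 73.5 CPM in the knockdown. It rose 2.34-fold (log2 fold change 1.23 ± 0.031 SE, edgeR adjusted p = 2.58e-18). Its neighbours were also higher, with a median of 0.66, and with that median as an offset its log2 fold change was 0.57 (edgeR adjusted p = 2.16e-11). CDC7, the kinase that phosphorylates the MCM ring, was at 19.1, 17.7, 14.8 and 18.0 CPM in the controls and at 39.4, 36.7, 36.7 and 33.3 CPM in the knockdown. Control replicate 3 was the lowest, and all knockdown libraries lay above all controls, with a 2.10-fold rise (log2 fold change 1.07 ± 0.095 SE, edgeR adjusted p = 2.57e-12). Its activating subunit DBF4 did not pass the test (log2 fold change -0.12 ± 0.11 SE, edgeR adjusted p = 0.291), and its control replicate 3 was again low, at 49.8 CPM against 60.4 to 67.8 in the other controls. Without that library DBF4 had a log2 fold change of -0.21 and an edgeR adjusted p of 0.00156.

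The GINS complex, which joins CDC45 and the MCM ring, was uneven. GINS4, GINS2 and GINS3 rose by 0.89, 0.67 and 0.53 on the log2 scale, and CDC45 by 0.31. GINS1 did not pass the test (log2 fold change -0.077 ± 0.034 SE, edgeR adjusted p = 0.104), although without control replicate 4 it had a log2 fold change of -0.11 and an edgeR adjusted p of 0.0451. GINS1 had the highest level of the 4 per kb of exon, at 15.8 CPM per kb in the controls and 14.9 in the knockdown. The span from the lowest to the highest GINS gene was 5.50-fold in the controls and 2.85-fold in the knockdown, a description with no test.

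The 4 genes of fork protection and fork scaffolding all rose. TIPIN, partner of TIMELESS at the fork, was at 11.7, 11.8, 10.1 and 10.9 CPM in the controls and at 21.9, 19.5, 18.7 and 19.1 CPM in the knockdown. It rose 1.79-fold without overlap (log2 fold change 0.84 ± 0.071 SE, edgeR adjusted p = 7.66e-11). WDHD1, which tethers polymerase alpha to the helicase, was at 24.9, 24.2, 21.7 and 25.2 CPM in the controls and at 36.5, 35.1, 35.0 and 33.9 CPM in the knockdown and rose 1.46-fold without overlap (log2 fold change 0.55 ± 0.053 SE, edgeR adjusted p = 1.11e-09). CLSPN, the checkpoint adaptor claspin, rose by 0.35 and TIMELESS by 0.14 on the log2 scale. TIMELESS had a smaller rise than its partner TIPIN, a difference that was not tested.

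**Figure D2:**
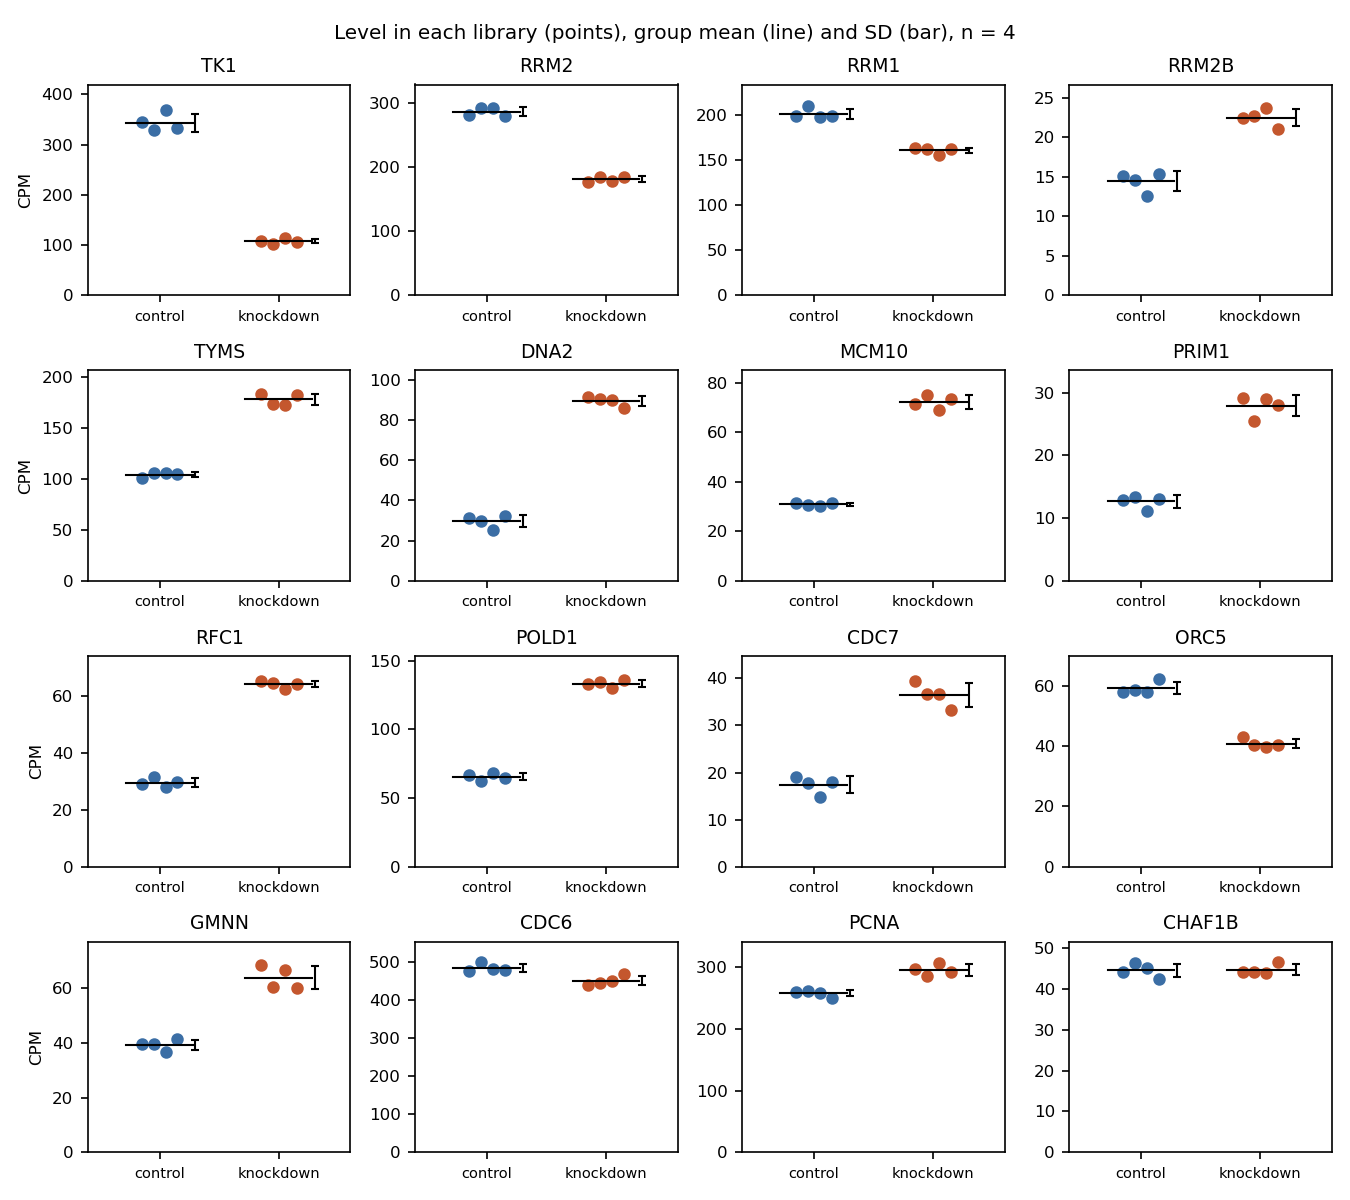
Level in CPM (y axis, from 0) of 16 replication and nucleotide synthesis genes in each library (points, replicates 1 to 4 from left to right), with group means (lines) and SD (bars, n = 4). TK1, RRM2, RRM1 and ORC5 lie lower in the knockdown, DNA2, MCM10, PRIM1, RFC1, POLD1 and CDC7 lie more than 2 times higher, and CHAF1B overlaps.

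Polymerase and primase genes differed among themselves, with 5 of 9 higher, POLA2 lower and 3 not passing the test. PRIM1, the catalytic subunit of primase, was at 13.0, 13.4, 11.2 and 13.1 CPM in the controls and at 29.2, 25.6, 28.9 and 28.1 CPM in the knockdown. It rose 2.20-fold (log2 fold change 1.14 ± 0.073 SE, edgeR adjusted p = 3.23e-14). PRIM2, the regulatory subunit of the same enzyme, did not pass the test (log2 fold change 0.12 ± 0.039 SE, edgeR adjusted p = 0.0854), although its groups did not overlap. The difference between the subunits was not tested. PRIM1 shares 33 exon bases on the same strand with NACA, which had far more counts.

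POLD1, the catalytic subunit of polymerase delta, was at 66.6, 62.1, 68.4 and 64.7 CPM in the controls and at 133, 134, 130.0 and 136 CPM in the knockdown and rose 2.04-fold (log2 fold change 1.03 ± 0.032 SE, edgeR adjusted p = 4.85e-18). POLE, the catalytic subunit of polymerase epsilon, was at 115, 115, 117 and 116 CPM in the controls and at 148, 157, 147 and 154 CPM in the knockdown and rose 1.31-fold (log2 fold change 0.39 ± 0.023 SE, edgeR adjusted p = 2.44e-10). Neither gene overlapped between groups. The ratio of POLE to POLD1 was 0.512, 0.548, 0.507 and 0.530 in the control libraries and 0.330, 0.346, 0.335 and 0.337 in the knockdown libraries, in counts per kb of exon. The knockdown values were all below the control values, with a log2 difference -0.64 ± 0.029 SE and an exact permutation p of 0.0286, the smallest that 4 against 4 allows (0.0358 adjusted over the 5 ratios). POLD2 rose by 0.36, while POLD3 (0.073, edgeR adjusted p = 0.174) and POLE2 (0.14, edgeR adjusted p = 0.0998) did not pass the test. POLE2 passed without knockdown replicate 4 (log2 fold change 0.19, edgeR adjusted p = 0.0497).

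Polymerase alpha, which extends the primers, showed opposite directions in its subunits. POLA1, the catalytic subunit, went from 44.8 ± 2.25 to 82.0 ± 2.18 CPM (SD, n = 4) and rose 1.83-fold (log2 fold change 0.87 ± 0.040 SE, edgeR adjusted p = 2.36e-15). POLA2, the accessory subunit, was at 46.5, 43.7, 51.7 and 45.1 CPM in the controls and at 40.8, 40.8, 41.3 and 44.8 CPM in the knockdown. Knockdown replicate 4 lay within the control range, so the groups overlapped, and the fall was small (log2 fold change -0.16 ± 0.062 SE, edgeR adjusted p = 0.00952). POLA2 did not pass when libraries were scaled by size only (adjusted p = 0.201) or by upper quartile (adjusted p = 0.102). Reads shared with its read-through transcript cannot be separated from it here, and that transcript had a log2 fold change of -0.48 (adjusted p = 0.138).

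PCNA, the sliding clamp, was at 259.6, 261, 257 and 251 CPM in the controls and at 296, 285, 307 and 292 CPM in the knockdown. The groups did not overlap, but the rise was 1.15-fold only (log2 fold change 0.20 ± 0.026 SE, edgeR adjusted p = 6.98e-06). Per kb of exon PCNA had rank 2 of the 57 genes in the controls, at 175 CPM per kb, and rank 1 in the knockdown, at 201 CPM per kb. The 5 subunits of its loader, replication factor C, moved in different directions. RFC1, the large subunit, was at 29.0, 31.6, 27.9 and 29.8 CPM in the controls and at 65.5, 64.6, 62.6 and 64.4 CPM in the knockdown and rose 2.17-fold (log2 fold change 1.12 ± 0.040 SE, edgeR adjusted p = 4.34e-17). RFC5, one of the small subunits, was at 18.0, 17.7, 19.0 and 16.1 CPM in the controls and at 30.0, 30.6, 27.7 and 31.5 CPM in the knockdown and rose 1.69-fold (log2 fold change 0.76 ± 0.064 SE, edgeR adjusted p = 1.65e-11). RFC5 shares 186 exon bases with WSB2 on the opposite strand. RFC3, another small subunit, was at 80.6, 77.9, 72.0 and 83.6 CPM in the controls and at 63.9, 60.6, 64.2 and 58.3 CPM in the knockdown. It fell 1.27-fold without overlap (log2 fold change -0.35 ± 0.056 SE, edgeR adjusted p = 3.43e-07). RFC4 rose by 0.58 on the log2 scale and RFC2 did not pass the test (log2 fold change -0.089 ± 0.040 SE, edgeR adjusted p = 0.0525). RFC2 was called lower without control replicate 4 (adjusted p = 0.0212) or without knockdown replicate 3 (adjusted p = 0.0165). The span of the 5 loader genes in CPM per kb of exon was 9.30-fold in the controls, from RFC1 to RFC2, and 4.18-fold in the knockdown, from RFC5 to RFC2.

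All 3 genes of replication protein A, which coats single-stranded DNA, rose. RPA1 was at 80.3, 80.4, 83.1 and 84.7 CPM in the controls and at 116, 115, 112 and 119 CPM in the knockdown, a 1.40-fold rise (log2 fold change 0.49 ± 0.026 SE, edgeR adjusted p = 1.03e-11). RPA2 was at 30.1, 30.0, 32.4 and 30.6 CPM in the controls and at 43.1, 41.6, 41.3 and 40.9 CPM in the knockdown, a 1.36-fold rise (log2 fold change 0.44 ± 0.031 SE, edgeR adjusted p = 6.14e-09). RPA3 rose by 0.41 on the log2 scale, and in none of the 3 did the groups overlap.

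Of the 4 genes that finish the lagging strand, 3 rose by at least 1.5-fold and FEN1 fell. DNA2 (ENSG00000138346.15, chr10:68414064-68472121), a nuclease and helicase that trims long flaps, was at 31.4, 29.8, 25.5 and 32.1 CPM in the controls and at 91.3, 90.6, 89.9 and 85.8 CPM in the knockdown. It had the largest rise of the 57 genes, 3.01-fold (log2 fold change 1.59 ± 0.077 SE, edgeR adjusted p = 2.76e-18). LIG1, the ligase that seals Okazaki fragments, was at 58.5, 52.1, 59.5 and 55.4 CPM in the controls and at 90.3, 88.3, 85.0 and 91.8 CPM in the knockdown and rose 1.58-fold without overlap (log2 fold change 0.66 ± 0.050 SE, edgeR adjusted p = 1.16e-12). FEN1, the main flap nuclease, was at 134, 127, 142 and 128 CPM in the controls and at 115, 114, 112 and 113 CPM in the knockdown and fell 1.17-fold without overlap (log2 fold change -0.22 ± 0.036 SE, edgeR adjusted p = 1.03e-05). The mean level of DNA2 went from 29.7 ± 2.95 to 89.4 ± 2.47 CPM and that of FEN1 from 133 ± 6.59 to 114 ± 1.28 CPM (SD, n = 4). FEN1 had the same direction as its 50 nearest genes (median -0.25), and with their median as an offset it lost its call and its log2 fold change was 0.022 (edgeR adjusted p = 0.607). RNASEH2A, which removes ribonucleotides, rose by 0.62 on the log2 scale. FEN1 shares 166 exon bases with TMEM258 on the opposite strand.

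The 6 nucleotide synthesis genes divided evenly, with 3 higher and 3 lower and a median log2 fold change of -0.025. TK1 (ENSG00000167900.12, chr17:78174075-78187233), thymidine kinase of the salvage route, was at 345, 329, 368 and 333 CPM in control replicates 1 to 4 and at 108, 102, 113 and 107 CPM in knockdown replicates 1 to 4. It fell 3.20-fold (log2 fold change -1.68 ± 0.047 SE, edgeR adjusted p = 2.93e-22), and per kb of exon it went from rank 1 of the 57 genes in the controls (185 CPM per kb) to rank 6 (57.8 CPM per kb). TYMS (ENSG00000176890.16, chr18:657604-673578), thymidylate synthase of the new-synthesis route, was at 101, 106, 106 and 105 CPM in the controls and at 184, 174, 172 and 182 CPM in the knockdown. It rose 1.71-fold (log2 fold change 0.77 ± 0.029 SE, edgeR adjusted p = 4.44e-16). The TK1 and TYMS transcripts thus went in opposite directions, both without overlap. TK2, the mitochondrial thymidine kinase, which is not among the 57, rose by 0.42 on the log2 scale. TYMS shares 967 exon bases, 39.15% of its exon length, with ENOSF1 on the opposite strand, and ENOSF1 had a log2 fold change of -0.55. DUT, which removes dUTP and yields the substrate of thymidylate synthase, rose by 0.28 on the log2 scale.

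Ribonucleotide reductase pairs the large subunit RRM1 with a small subunit, either RRM2, which is made in S phase, or RRM2B, which is known as the p53-inducible form. RRM2, at chr2:10120698-10131419, was measured at 282, 292, 293 and 279 CPM in the controls and at 177, 185, 179 and 185 CPM in the knockdown. It fell 1.58-fold (log2 fold change -0.66 ± 0.024 SE, edgeR adjusted p = 2.02e-15). RRM1, at chr11:4094707-4138876, was measured at 199.8, 210.5, 199 and 199.7 CPM in the controls and at 163, 162, 156 and 162 CPM in the knockdown and fell 1.25-fold (log2 fold change -0.33 ± 0.024 SE, edgeR adjusted p = 3.37e-09). RRM2B, at chr8:102204502-102239118, was measured at 15.1, 14.7, 12.6 and 15.4 CPM in the controls and at 22.5, 22.7, 23.7 and 21.1 CPM in the knockdown. Its control replicate 3 was the lowest, and every knockdown library lay above every control, a 1.56-fold rise (log2 fold change 0.64 ± 0.075 SE, edgeR adjusted p = 3.76e-09).

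These changes moved the balance of the subunits. The ratio of RRM2B to RRM2, in counts per kb of exon, was 0.0512, 0.0482, 0.0412 and 0.0528 in the control libraries and 0.122, 0.118, 0.127 and 0.109 in the knockdown libraries. It was 2.47-fold higher in the knockdown (log2 difference 1.30 ± 0.093 SE, exact permutation p = 0.0286, 0.0358 adjusted over 5 ratios), yet RRM2 remained the more abundant transcript in every library. Because RRM2B rose and RRM2 fell, both without overlap, this permutation p could only take its smallest value and adds nothing to the 2 single results. The ratio of RRM2 to RRM1 was 1.11, 1.09, 1.16 and 1.10 in the control libraries and 0.849, 0.897, 0.896 and 0.894 in the knockdown libraries, lower in all knockdown libraries (log2 difference -0.33 ± 0.027 SE, exact permutation p = 0.0286, 0.0358 adjusted).

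**Figure D3:**
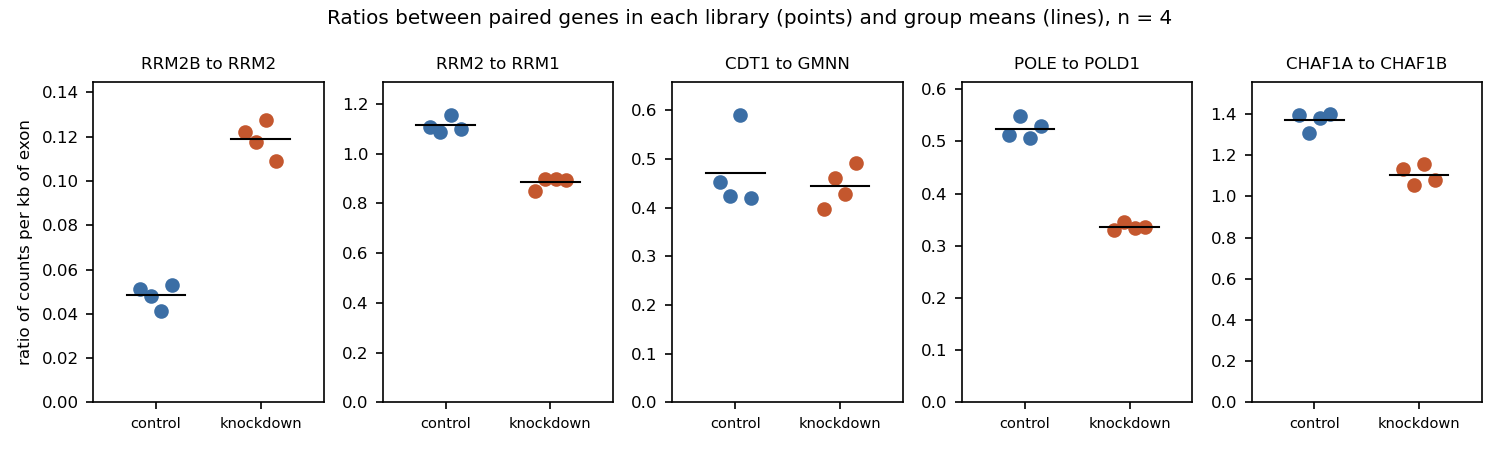
Ratio of counts per kb of exon between paired replication genes (y axis, from 0) in each library (points) with group means (lines, n = 4). RRM2B to RRM2 is higher in the knockdown, RRM2 to RRM1, POLE to POLD1 and CHAF1A to CHAF1B are lower, and CDT1 to GMNN overlaps.

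Chromatin assembly factor 1 places histones on new DNA, and its 2 subunits on the list did not share a direction. CHAF1A, the large subunit, was at 51.7, 50.8, 52.2 and 49.9 CPM in the controls and at 42.0, 39.0, 42.5 and 42.2 CPM in the knockdown and fell 1.24-fold without overlap (log2 fold change -0.30 ± 0.032 SE, edgeR adjusted p = 1.25e-06). With the median of its neighbours as an offset CHAF1A lost its call (log2 fold change -0.065, edgeR adjusted p = 0.195). CHAF1B, the middle subunit, was at 44.1, 46.2, 45.1 and 42.5 CPM in the controls and at 44.0, 44.1, 43.7 and 46.6 CPM in the knockdown, with a log2 fold change of 0.0053 ± 0.033 SE that did not pass the test (edgeR adjusted p = 0.92). The ratio of CHAF1A to CHAF1B was 1.39, 1.31, 1.38 and 1.40 in the control libraries and 1.13, 1.05, 1.16 and 1.08 in the knockdown libraries (log2 difference -0.31 ± 0.038 SE, exact permutation p = 0.0286, 0.0358 adjusted).

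The genes lie on 21 chromosomes, and neighbouring genes also differed between the lines, so each was set beside the 50 nearest tested protein-coding genes outside the list. Of the 57, 52 (91.2%) had a higher log2 fold change than the median of their neighbours, against 50.1% of 13207 other protein-coding genes. The 5 below their neighbours were ORC5, TIMELESS, TK1, RRM2 and CHAF1A. The side depended on the number of neighbours for some genes. Against the 20 nearest genes, TIMELESS (0.14) lay above the median (-0.25). FEN1, RFC3, ORC6, DBF4 and PRIM2 lay below their medians of 20 neighbours. The offsets below use 50 neighbours. Neighbour medians ran from -0.67 around RRM1 on chromosome 11 to 0.66 around MCM10 on chromosome 10. RRM1 itself fell by 0.33 and CDC6 by 0.10, less than their neighbours (-0.67 and -0.56). TK1, with a log2 fold change of -1.68, lay among neighbours at -0.37, RRM2, at -0.66, among neighbours at 0.088, and RRM2B, at 0.64, among neighbours at -0.37. FEN1 and RFC3 were close to theirs (-0.25 and -0.42). With each gene's neighbour median as an offset, 43 of the 57 were called higher and 4 lower, namely ORC5, TK1, RRM2 and TIMELESS, and CDC6, POLA2, RFC3, FEN1 and RRM1 had positive log2 fold changes of 0.46, 0.11, 0.067, 0.022 and 0.34. CHAF1A was no longer called, at -0.065. The rises of DNA2, MCM10 and RFC1 became smaller with that offset, at 1.14, 0.57 and 0.60 on the log2 scale. Whether copy number differs between the lines was not tested.

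**Figure D4:**
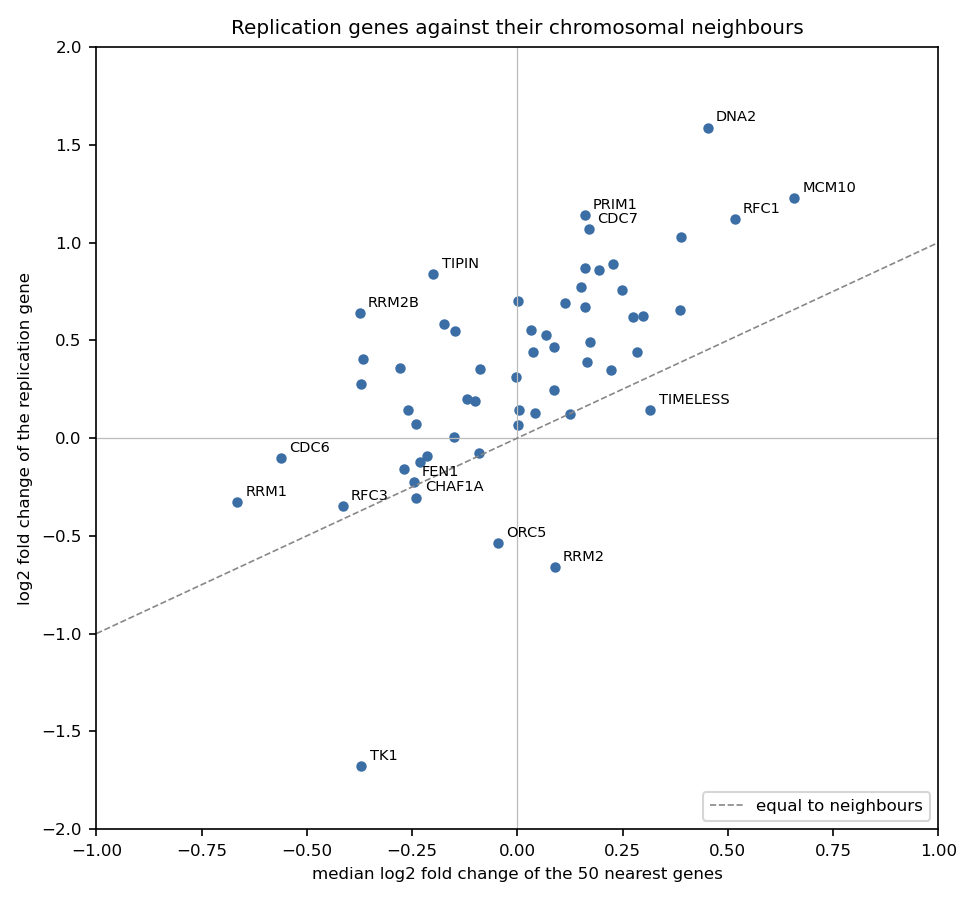
Log2 fold change of each of the 57 genes (y axis) against the median log2 fold change of its 50 nearest tested protein-coding genes (x axis), knockdown against control. The dashed line marks equality, and 52 of the 57 points lie above it.

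The other genes of replication included both directions. Of 37 further replication factors, such as clamp-loader variants, histone chaperones and topoisomerases, 18 rose (48.6%, against 39.4% of all genes tested) and 8 fell (21.6%, against 37.7%), with a median log2 fold change of 0.09. By at least 1.5-fold, 8.11% rose and 8.11% fell, against 22.6% and 21.6% of all genes tested. RBBP4, the small subunit of chromatin assembly factor 1 and a histone binder of other complexes, rose by 0.79, and DBF4B, an alternative activator of CDC7, by 0.64. POLD4, the smallest subunit of polymerase delta, fell from 7.74 ± 1.05 to 1.72 ± 0.325 CPM (SD, n = 4), a log2 fold change of -2.17. UHRF1, which guides maintenance of DNA methylation at forks, had a log2 fold change of -1.03.

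Of 38 further genes of nucleotide metabolism, 25 rose (65.8%, against 39.4% of all genes tested) and 10 fell (26.3%, against 37.7%). Their median log2 fold change was 0.41. PRPS2, a phosphoribosyl pyrophosphate synthetase, rose from 0.284 to 51.4 CPM, while its relative PRPS1 fell from 73.0 to 34.9 CPM (log2 fold change -1.06). PRPS2 had 3 to 8 counts in each control library, so the size of its rise is uncertain. SLC29A1, a nucleoside transporter that also takes up thymidine, rose 8.11-fold, from 48.6 to 394 CPM. CMPK1, a pyrimidine nucleotide kinase, fell 1.53-fold.

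Regulators of E2F-driven transcription were mixed, with 10 of 19 higher (52.6%, against 39.4% of all genes tested), 7 lower (36.8%, against 37.7%) and a median log2 fold change of 0.18. TFDP2, a dimer partner of E2F factors, rose 10.7-fold from 27.8 CPM, and E2F5 rose by 1.11 on the log2 scale from a low level. TFDP1, another dimer partner, fell from 311 to 203 CPM (log2 fold change -0.61), among neighbours with a median of -0.60. RB1, the retinoblastoma protein gene that restrains E2F, fell 2.22-fold (log2 fold change -1.15 ± 0.046 SE, edgeR adjusted p = 6.06e-17), among neighbours with a median of -0.47. The repressor E2F8 had a log2 fold change of -0.80, among neighbours with a median of -0.32. Cyclins, kinases and inhibitors of S-phase entry had 7 of 15 higher and 7 lower (46.7% each, against 39.4% and 37.7% of all genes tested), with a median of -0.10. CDK2 and SKP2, which promote S-phase entry, rose by 1.71 and 1.64. CDK6 fell from 67.2 to 2.47 CPM and the inhibitor CDKN1A (p21) from 8.35 to 1.76 CPM. Mitotic markers were higher in 9 of 10 (90%, against 39.4% of all genes tested), with a median of 0.72, led by AURKB (1.07) and CDK1 (1.06). The higher replication transcripts were thus seen together with higher mitotic transcripts in the same libraries.

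**Figure D5:**
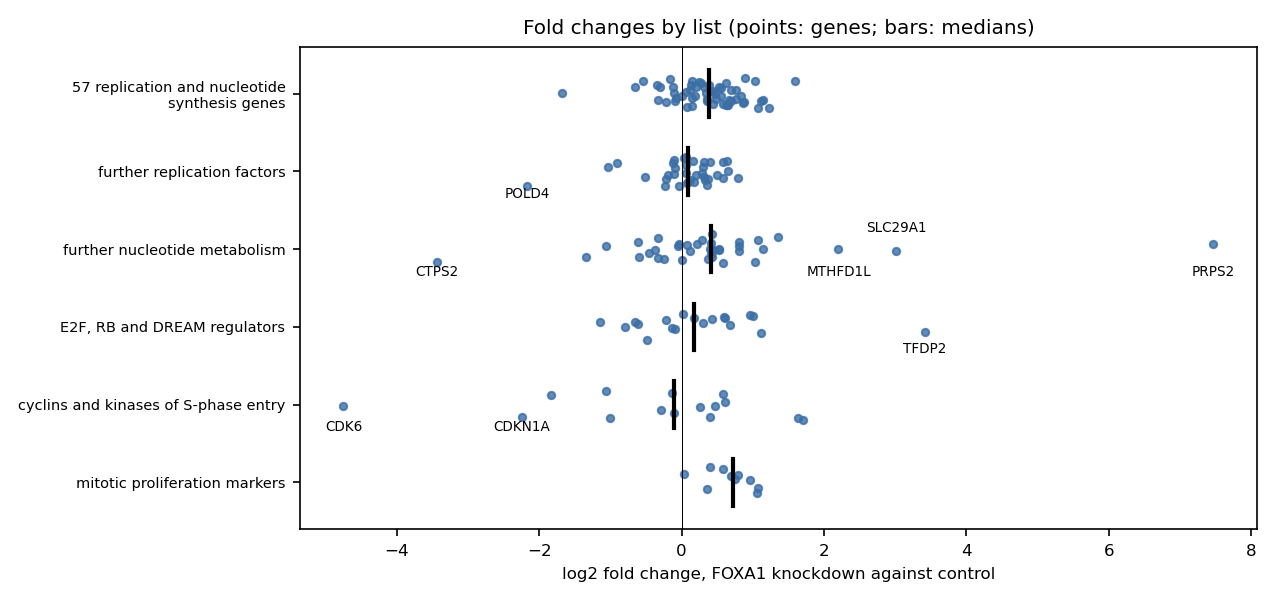
Log2 fold change, knockdown against control (x axis), of the 57 replication and nucleotide synthesis genes and of 5 related lists (y axis); points are genes, spread vertically for legibility, and bars are medians. The medians are 0.39, 0.09, 0.41, 0.18, -0.10 and 0.72 from top to bottom, and TOP2A is in 2 lists.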

How the data were processed

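The deposited table holds unnormalised counts, 1 value per gene and library, for 8 libraries. Reads were paired, 101 bp, from a standard mRNA library run on a NextSeq instrument, per the labels. The submitters' processing notes name FastQC, Salmon 1.9, DESeq2 3.16 and build hg38, with no role or order. The annotation release, the use of strand and any rounding of the counts are not given in the sources used here. Without strand, reads of overlapping genes cannot be told apart, so the overlaps with counted genes that hold the most exon bases are stated, with those of PRIM1 and NACA.

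Groups came from the sample titles. The 57 genes and every list were chosen with earlier results of these data known. Counts were tested in R 4.3.3 with edgeR 4.0.16, using filterByExpr (minimum 10 counts, total 15), TMM scaling (factors 0.9655 to 1.04) and the robust quasi-likelihood test. P-values were adjusted by Benjamini-Hochberg over all 16430 genes tested, with a threshold of 0.05. Fitted fold changes use a prior count of 0.125, and standard errors come from log2 CPM with 0.5 added to each count. The 5 ratios were tested by exact permutation over 70 divisions, two-sided. The biological coefficient of variation was 4.56%. The procedure was tested on simulated data.

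Library values are given for the 2 largest called rises and 2 largest called falls of each role, for genes of the ratios and for PCNA. From each further list, the 2 largest called rises and falls with a mean of at least 50 counts are named, and cell type markers were checked, of which 1 leukocyte marker and the sum that includes it are not reported here. Positions are from GENCODE 29, which matched 29358 of 30434 identifiers. Promoter sequences are from RefSeq, on GRCh38.p14, and were not searched elsewhere. Printed windows lie outside GENCODE exons.

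Alternatives were other scalings, filters and thresholds, DESeq2 1.42.0, limma 3.58.1 (voom), a non-robust dispersion estimate, blocking on the replicate number, a test against a 1.5-fold change, an offset from the 50 nearest genes, 20 in place of 50 neighbours, other gene lengths for ratios, and leaving out each library. Figures used Python 3.11.15, pandas 2.3.3, numpy 2.4.6 and matplotlib 3.10.9.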

Additional observations from a re-analysis of the deposited data

Results flagged for a closer look

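In each group of 4 libraries, the highest or lowest value was compared with the others by its gap to the nearest value as a share of the range. Of 74 groups checked, 9 had a gap above Dixon's 95% critical value for 4 values, and chance picks out about 1 in 20, or 3.7. ORC3 was at 15.1 CPM in control replicate 3, against 19.6 to 20.2 CPM in the other controls. ORC5 was at 62.4 CPM in control replicate 4, against 58.1 to 58.7 CPM, and at 43.0 CPM in knockdown replicate 1, against 39.8 to 40.4 CPM. POLA2 was at 44.8 CPM in knockdown replicate 4, against 40.8 to 41.3 CPM. CHAF1A was at 39.0 CPM in knockdown replicate 2, against 42.0 to 42.5 CPM. RRM1 was at 210.5 CPM in control replicate 2, against 198.6 to 199.8 CPM, and at 156.4 CPM in knockdown replicate 3, against 162.1 to 163.3 CPM. CHAF1B was at 46.6 CPM in knockdown replicate 4, against 43.7 to 44.1 CPM. The ratio of RRM2 to RRM1 was 0.849 in knockdown replicate 1, against 0.894 to 0.897 in the other knockdown libraries.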

How the results depend on the processing

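Of the 57 genes, 17 kept their call and direction under all 20 alternatives, and 32 lost the call in the test against a 1.5-fold change, which left 15 higher and 2 lower. That test also left 1 higher and 3 lower further replication factors, 10 and 3 nucleotide metabolism genes, 5 and 2 E2F, RB and DREAM regulators, and 2 higher cyclins and kinases. Fewer genes pass it because it asks for a larger change. The median log2 fold change of the 57 was 0.475 with library size only, 0.451 with upper-quartile scaling and 0.346 with the regional offset from neighbouring genes. With library size only, 1 gene was lower by at least 1.5-fold and GINS1 was at 0.0064. The regional offset left 4 genes lower, and turned the sign of CDC6 (0.46), POLA2 (0.11), RFC3 (0.067), FEN1 (0.022), RRM1 (0.34), GINS1 (0.014), DBF4 (0.11), RFC2 (0.12) and TIMELESS (-0.18). Of these, RFC3, FEN1, DBF4 and TIMELESS lay on the other side of the median of their neighbours when 20 in place of 50 were used. CHAF1B, near 0, was at -0.0017, -0.023 and -0.016 without control replicate 1, control replicate 4 and knockdown replicate 4. Leaving out 1 library gave 39 to 41 higher and 9 to 11 lower genes, and CDT1 to GMNN log2 differences from -0.13 to 0.036. The cause of these shifts was not tested. The replicate block changed the call of none of the 57 (40 higher, 9 lower). Deviations of same-numbered libraries from their group means correlated positively for replicates 1 and 2 and negatively for 3 and 4 (0.172, 0.297, -0.196 and -0.0877 over 10071 genes). Control replicate 3 with knockdown replicate 4 (0.204) and control replicate 4 with knockdown replicate 3 (0.231) were also positive. Whether libraries of the groups were paired or shared a batch was not tested, and the block covers same-numbered libraries only. Depth limits the precision of the lowest genes, such as POLE2 with a mean of 244 counts.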

Other observations

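The list of nucleotide metabolism genes holds 6 enzymes of the new-synthesis route to purines, a subgroup singled out after its values were seen. PPAT, GART, PFAS, PAICS, ADSL and ATIC all rose, with log2 fold changes of 0.22, 0.41, 1.35, 0.43, 1.03 and 0.81. Of all genes tested, 39.4% rose. PFAS went from 27.2 ± 1.69 to 69.4 ± 1.55 CPM and ADSL from 47.0 ± 2.26 to 95.8 ± 3.39 CPM (SD, n = 4), without overlap. The branch towards guanine nucleotides differed, since IMPDH2 rose by 0.59, IMPDH1 had a log2 fold change of -0.60, and GMPS, at 0.0027, did not pass edgeR's test (adjusted p = 0.945). In the pyrimidine route, CAD, which carries the opening steps, rose 2.10-fold and DHODH by 0.42 on the log2 scale, while UMPS did not pass (log2 fold change -0.051, adjusted p = 0.293). MTHFD1L, a mitochondrial enzyme of one-carbon supply, rose 4.61-fold and MTHFD2 had a log2 fold change of -0.33.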
